A study of Mus musculus with 6 samples.

Results

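Axon-guidance ligands and receptors were examined in glomerular endothelial cells (GEC), the cells that line the capillaries of the kidney's filter. The set held genes whose symbols start with Sema, Plxna, Plxnb, Plxnc, Plxnd, Epha, Ephb, Efna or Efnb, together with the neuropilins, Slits, Robos, Unc5 receptors, netrins, Dcc and Neo1. The annotation assigned 73 probesets with a single symbol to 68 such genes, and a gene with several probesets was represented by the one with the highest mean. Of these 68 genes, 45 reached 100 on the linear scale, 6.64 on the log2 scale, in 3 or more of the 6 arrays, as did 12763 of 19938 genes in all.

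GEC were compared between normal mice of the genotype Tie2-GFP/ +/+ and diabetic mice of the genotype Tie2-GFP/ DB/DB, in 3 samples each, to describe how gene expression differs in the db/db model of diabetic kidney disease. The db/db mouse lacks a working leptin receptor and becomes obese and diabetic. All 6 samples came from mice of 7 months, no treatment is given, and each sample was run on 1 Affymetrix whole-transcript mouse array. GFP positive cells were sorted from sieved, dissociated glomeruli. The promoter of Tek, the gene also called Tie2, drives the GFP, and it is also active in some blood cells. The sources name neither the sex of the animals nor whether animals were pooled, and a sorted bulk sample cannot tell fewer cells of a type from less RNA per cell. Replicates are labelled as biological.

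Axon-guidance proteins were named for steering growing nerve fibres and act in blood vessels by the same contacts. Semaphorins signal through plexins, the secreted class 3 members usually with a neuropilin as co-receptor. Ephrins are held on the cell surface and bind Eph receptor tyrosine kinases on the neighbouring cell, Slits bind Robo receptors, and netrins bind Dcc, neogenin and the Unc5 receptors. Many of these pairs repel or attract cells through small GTPases that remodel actin, and in endothelium they take part in sprouting, arterial and venous identity and barrier control.

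Markers of the labelled cell type were present. The 12 endothelial markers all passed the level filter, with a summed linear signal of 66149 to 66963 in normal and 66346 to 68765 in db/db arrays. All were chosen as pan-endothelial, but the study describes Ehd3 as specific to GEC within the kidney. Tek itself had log2 signals of 12.59, 12.55 and 12.77 in the normal arrays and 12.18, 12.48 and 12.26 in the db/db arrays, so that every db/db array lay below every normal one (log2 change -0.33 ± 0.12, limma adjusted p = 0.754). Of the 12 markers, 5 (Pecam1, Cdh5, Kdr, Eng and Egfl7) lay above every normal array in all db/db arrays and 3 (Tek, Flt1 and Ehd3) below, against backgrounds of 7.39% and 5.92% of genes. The median change over the list was 0.06, and Cdh5 changed by 0.21. Mesangial and mural markers summed to 1133 to 1358 in normal and 1277 to 1432 in db/db arrays, and 5 of 9 passed the filter. Meis1, a mesangial marker of the study, had 9.03, 7.94 and 8.94 in normal and 8.78, 9.04 and 8.97 in db/db arrays. Erythrocyte and platelet markers summed to 1118 to 1452 in normal and 857 to 1219 in db/db arrays. The platelet gene Ppbp had 9.34, 8.61 and 8.68 in normal and 8.21, 7.06 and 8.84 in db/db arrays. Normal replicate 2 was separated from the other 5 arrays by the leading principal component (30.5% of variance). Pairwise correlations of the arrays over kept probesets lay between 0.924 and 0.953, with means of 0.942 within groups and 0.940 between them. Every value below is a log2 signal, every change is db/db minus normal on that scale with the moderated standard error of limma (3 arrays per group), and since the arrays' signals are distributed nearly alike (medians of 7.00 to 7.04) a change is read against the rest of its array.

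No member passed the limma test after Benjamini-Hochberg adjustment over all 20661 probesets kept, of which 0% passed, and the smallest adjusted p among the 45 members was 0.646, for Unc5b. With 1 probeset per gene the background was 0.00784% of genes, again no member passed, and the smallest adjusted p was 0.492. At an unadjusted limma p under 0.05, 6 members, or 13.3%, differed in either direction, against a background of 6.57% of genes. Of these, 4 were higher in db/db GEC, namely Unc5b, Plxnc1, Sema6d and Plxnb2, against a background of 3.49% of genes. The other 2, Epha6 and Sema5a, were lower, against a background of 3.07%. These were 8.89% and 4.44% of the members. Without normal replicate 2, 5 members were higher and 2 lower at that level, among them Plxnc1, Sema6d, Unc5b and Epha6 but neither Plxnb2 nor Sema5a, where 6.31% of genes were at that level in either direction. The unpaired t-test of the study's methods gave 4 members higher at an unadjusted p under 0.05 and 0 lower, where 6.76% of genes were at that level in either direction, and 0 after adjustment. With 3 arrays in each group the smallest two-sided p of an exact permutation test is 0.1, so no single member could pass one at 0.05.

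Changes of the members were about as small as those of other genes. Their median change was 0.02, against 0.01 over all 12763 genes, and their median absolute change was 0.11, equal to the 0.11 of all genes. Of the 45 members, 42 differed by less than 1.5-fold, as did 12343 of all genes. A higher db/db mean was found for 25 members and a lower one for 20, and over all 12763 genes for 6850 and 5913. Every db/db array lay above every normal array for 6 members (Unc5b, Plxnc1, Sema6d, Plxnb2, Robo3 and Sema6b), against a background of 7.39% of genes. The reverse held for 3 members (Epha6, Sema5a and Ntn4), against a background of 5.92%.

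**Figure D1:**
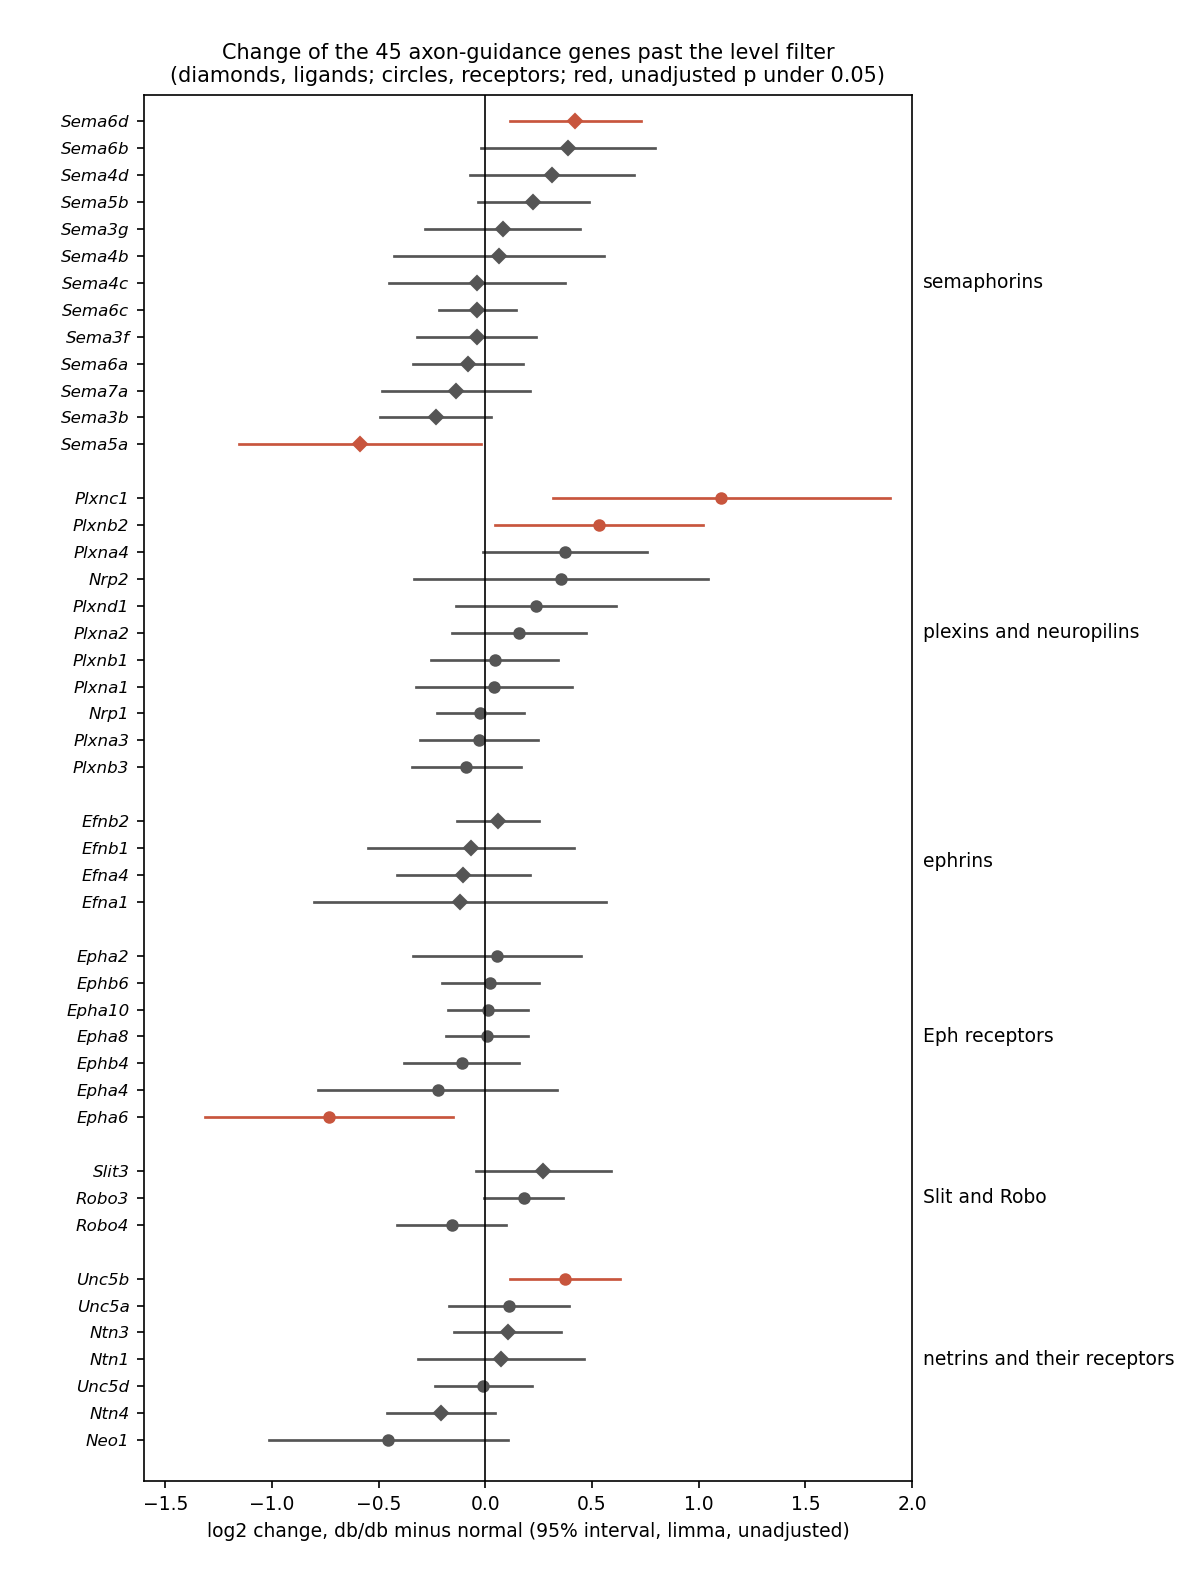
Log2 change of each of the 45 members (db/db minus normal, points) with its 95% interval from limma (bars), grouped by family, with diamonds for ligands, circles for receptors and red for an unadjusted p under 0.05. The changes ran from -0.73 for Epha6 to 1.11 for Plxnc1, and 42 of 45 were under 1.5-fold.

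Among the guidance receptors of the netrins and semaphorins, Unc5b and Plxnc1 had the smallest p-values. Unc5b, a netrin receptor of endothelial cells, had log2 signals of 7.83, 7.60 and 7.86 in the normal arrays and 8.21, 8.06 and 8.14 in the db/db arrays. All db/db arrays were above all normal arrays, and the group means went from 7.76 ± 0.14 to 8.14 ± 0.07 (SD over 3 arrays). The change was 0.37 ± 0.10 (95% interval 0.11 to 0.63, 1.29-fold, limma adjusted p = 0.646). Plxnc1, the plexin that binds semaphorin 7A, had 9.03, 8.19 and 7.81 in the normal arrays and 9.63, 9.36 and 9.35 in the db/db arrays. Normal replicate 1 lay well above the other normal arrays, and the db/db arrays were close together above all of them. Its change of 1.11 ± 0.32 was the largest of any member in size (95% interval 0.32 to 1.90, 2.15-fold, limma adjusted p = 0.677). When each array was left out in turn, the Plxnc1 change lay between 0.84 and 1.45, the highest value without normal replicate 1. Plxnc1 alone of the members passed the study's screen of a t-test p under 0.05 with over 1.5-fold, which 1.28% of genes passed.

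Sema6d, Unc5b and Sema5a are shown by the RefSeq sequence upstream of the annotated start, as the ligands and the receptor at an unadjusted limma p under 0.05 whose windows hold at least 200 bases outside the gene (GRCm38.p6, printed 5′ to 3′ on the gene's strand). Capitals mark GGAAG, 1 form of the binding core of the ETS factors, a family active in endothelium. It was searched on both strands, so that CTTCC also counts, and other forms of the core were not searched. Unc5b lies at chr10:60831582-60831831 (minus strand), Sema6d at chr2:124089719-124089942 (plus strand, the first of 2 annotated starts) and Sema5a at chr15:32244563-32244812 (plus strand).
Unc5b: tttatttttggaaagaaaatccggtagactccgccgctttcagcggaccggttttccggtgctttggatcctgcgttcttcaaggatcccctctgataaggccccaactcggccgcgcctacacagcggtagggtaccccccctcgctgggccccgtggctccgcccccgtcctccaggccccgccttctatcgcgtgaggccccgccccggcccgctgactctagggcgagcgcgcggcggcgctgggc
Sema6d: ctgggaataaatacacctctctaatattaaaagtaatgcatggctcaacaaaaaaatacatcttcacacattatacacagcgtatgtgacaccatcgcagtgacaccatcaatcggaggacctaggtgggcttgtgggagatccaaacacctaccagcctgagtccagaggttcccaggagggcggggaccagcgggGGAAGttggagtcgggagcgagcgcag
Sema5a: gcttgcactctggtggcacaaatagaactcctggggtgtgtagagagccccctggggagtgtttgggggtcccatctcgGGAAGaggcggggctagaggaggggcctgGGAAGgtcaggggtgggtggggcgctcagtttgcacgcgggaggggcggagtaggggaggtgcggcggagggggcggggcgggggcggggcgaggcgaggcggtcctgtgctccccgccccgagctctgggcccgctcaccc
GGAAG was found 0 times in the Unc5b window, 1 time in that of Sema6d and 2 times in that of Sema5a. Of 32851 RefSeq windows, 64.1% held it within 250 bases and 59.2% within the 224 bases available for Sema6d. The GC box GGGCGG, counted on both strands and allowed to overlap GGAAG, was found 2, 1 and 5 times, and 32.7% and 29.1% of windows of those lengths held it. Among 38 members past the filter with a 250-base window, here not cut at the gene's span, 25 held GGAAG and 32 the GC box. These counts used the first window of each gene. The 32851 windows included further starts of a gene and were not limited to genes past the filter. The members' counts are therefore not like for like with those shares. A match of letters is a description and not a measured site.

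Semaphorins, the ligands of plexins, had 13 of 20 genes past the filter, with a median change of -0.04, 6 higher and 7 lower means. Sema6d, a transmembrane ligand of class A plexins, had 11.63, 11.50 and 11.81 in the normal arrays and 12.23, 11.95 and 12.03 in the db/db arrays. The groups did not overlap, and the means went from 11.65 ± 0.16 to 12.07 ± 0.14. The change was 0.42 ± 0.12 (95% interval 0.12 to 0.73, 1.34-fold, limma adjusted p = 0.684). Sema5a, a transmembrane semaphorin with thrombospondin repeats, had 11.47, 12.21 and 11.72 in the normal arrays and 11.44, 10.94 and 11.25 in the db/db arrays. Its groups were separated only narrowly, by the gap between normal replicate 1 and db/db replicate 1. The change was -0.59 ± 0.23 (95% interval -1.16 to -0.02, limma adjusted p = 0.772).

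Among the other class 6 semaphorins, Sema6b, also a plexin A ligand, had 8.22, 7.82 and 8.35 in the normal arrays and 8.52, 8.66 and 8.37 in the db/db arrays, without overlap, and a change of 0.39 ± 0.17 (limma adjusted p = 0.785). Its 2 probesets hold identical values and were counted once. Sema6a, which is known from vascular growth, had 11.66, 11.53 and 11.84 in the normal arrays and 11.63, 11.55 and 11.60 in the db/db arrays. The groups overlapped fully, with a change of -0.08 ± 0.10 (95% interval -0.34 to 0.18). Sema6c, near the filter level, differed by -0.04.

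Class 3 semaphorins are secreted and act largely through neuropilins. Sema3b had 7.84, 7.85 and 7.64 in the normal arrays and 7.54, 7.43 and 7.66 in the db/db arrays, so that 2 db/db arrays were below all normal ones and db/db replicate 3 was just above the lowest of them (change -0.23 ± 0.11, limma adjusted p = 0.803). Sema3f, a ligand of neuropilin 2 that repels endothelial cells, had 10.45, 10.54 and 10.71 in the normal arrays and 10.62, 10.57 and 10.39 in the db/db arrays, with overlap and a change of -0.04 ± 0.11. Sema3g, a semaphorin of arterial endothelium, had 8.09, 8.40 and 7.87 in the normal arrays and 8.21, 8.20 and 8.19 in the db/db arrays, and the db/db values lay inside the normal range (change 0.08 ± 0.15).

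Among the remaining semaphorins, Sema4d, a ligand of plexin B receptors, had 7.78, 7.67 and 7.70 in the normal arrays and 8.14, 8.25 and 7.71 in the db/db arrays. Both db/db replicates 1 and 2 were above every normal array, while replicate 3 was among the normal values (change 0.31 ± 0.16, limma adjusted p = 0.822). Its second probeset differed by 0.16. Sema5b, a relative of Sema5a, had 7.24, 7.38 and 7.10 in the normal arrays and 7.50, 7.38 and 7.53 in the db/db arrays, where db/db replicate 2 met the highest normal value (change 0.22 ± 0.10). Sema7a, the membrane-anchored ligand of plexin C1, differed by -0.14, and the transmembrane Sema4b and Sema4c by 0.06 and -0.04.

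**Figure D2:**
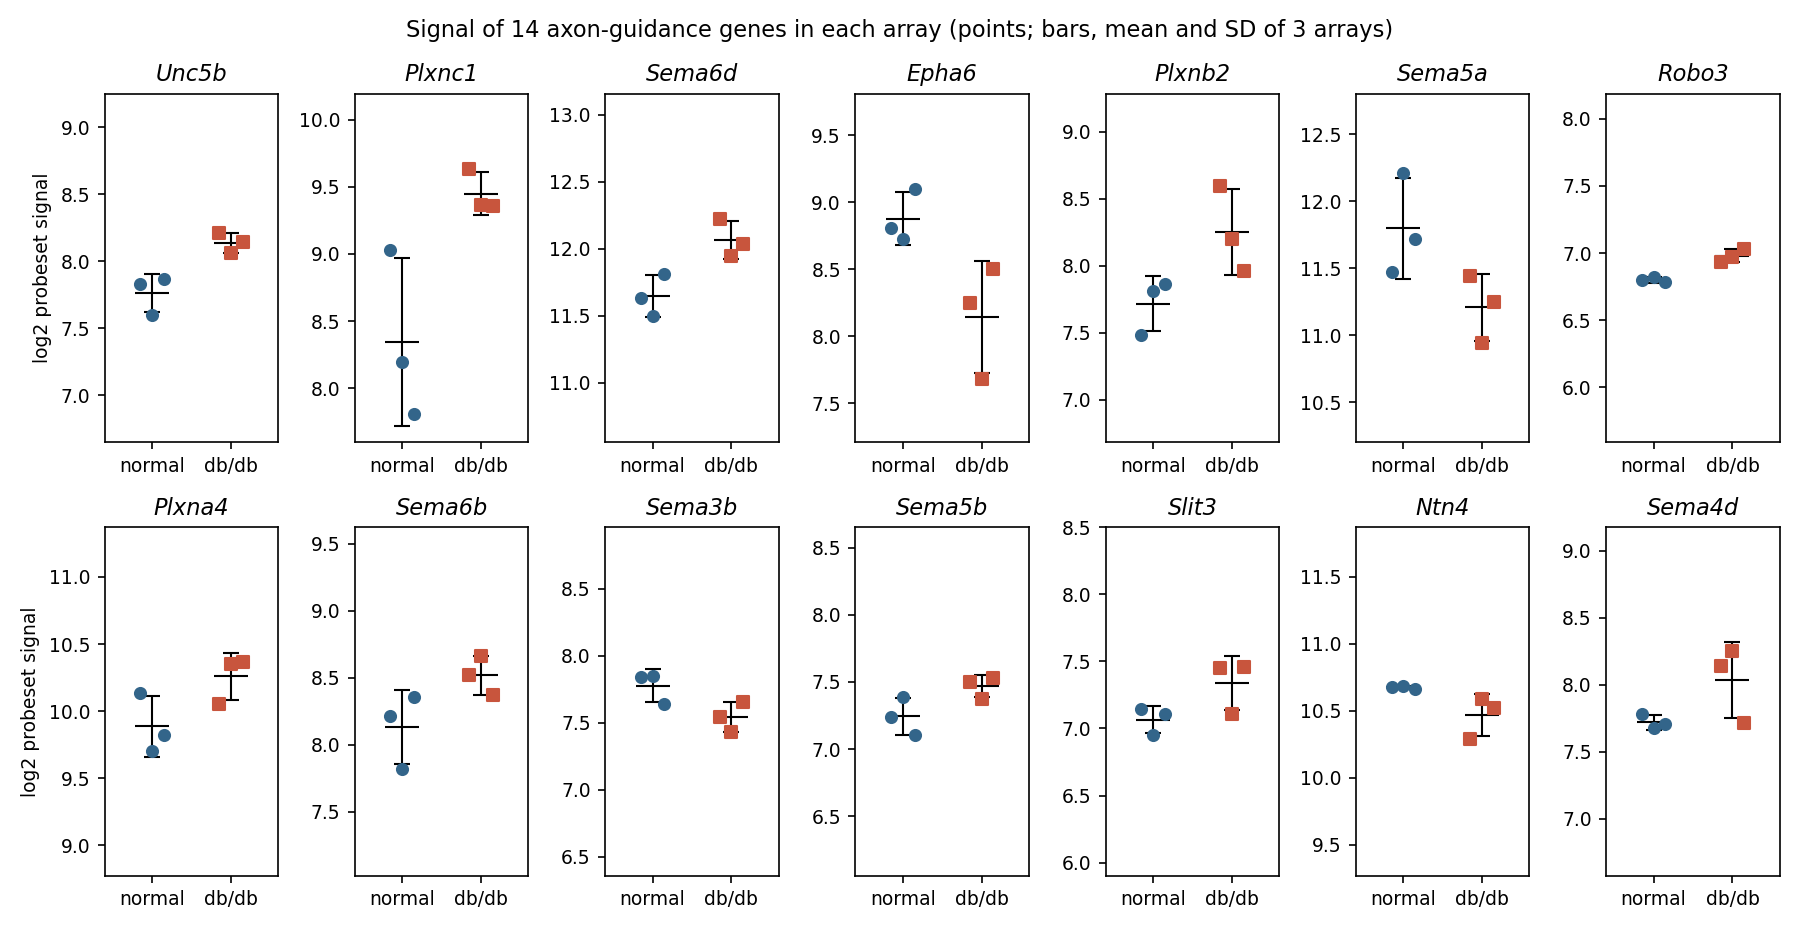
Log2 signal in each of the 6 arrays (points, with the mean and SD of each group as bars; normal and db/db on the x axis) for the 14 members with the smallest limma p. Plxnc1 is spread from 7.81 to 9.03 in normal arrays and from 9.35 to 9.63 in db/db arrays, and Sema5a is separated by 0.03 log2 units only.

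Plexins and neuropilins, the semaphorin receptors, had all 11 genes past the filter. Of these, 8 had higher and 3 lower db/db means (all genes: 6850 and 5913), and the median change was 0.16 (all genes: 0.01). With an array left out, this median lay between 0.04, without db/db replicate 1, and 0.28, without db/db replicate 3, and at a filter level of 200, which 8 of the 11 passed, it was 0.30. Plxnb2, a plexin B receptor of many tissues, had 7.48, 7.81 and 7.86 in the normal arrays and 8.59, 8.20 and 7.96 in the db/db arrays. Every db/db array was above every normal one, with db/db replicate 1 highest and replicate 3 near the upper normal values. The change was 0.53 ± 0.20 (95% interval 0.05 to 1.02, 1.45-fold, limma adjusted p = 0.754). Plxna4, a receptor for class 6 and class 3 semaphorins, had 10.14, 9.70 and 9.82 in the normal arrays and 10.06, 10.35 and 10.37 in the db/db arrays, and db/db replicate 1 lay below normal replicate 1 (change 0.37 ± 0.16, limma adjusted p = 0.783). Plxnd1, the endothelial receptor of semaphorin 3E, had 9.92, 10.36 and 10.04 in the normal arrays and 10.52, 10.31 and 10.20 in the db/db arrays, with overlap and a change of 0.24 ± 0.15.

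Both neuropilins passed the filter. Nrp1, the co-receptor of VEGF and class 3 semaphorins, had 13.20, 13.08 and 13.25 in the normal arrays and 13.15, 13.19 and 13.12 in the db/db arrays. The groups overlapped, with a change of -0.02 ± 0.08 and a 95% interval of -0.23 to 0.18. Nrp2, a co-receptor for VEGF-C and semaphorin 3F, had 9.66, 9.22 and 8.62 in the normal arrays and 9.73, 9.48 and 9.35 in the db/db arrays, where the normal arrays spanned more than the db/db arrays (change 0.35 ± 0.28). Its change was 0.60 without normal replicate 1 and 0.08 without normal replicate 3. Changes of the other plexins were 0.16 for Plxna2, 0.04 for Plxnb1, 0.04 for Plxna1, -0.03 for Plxna3 and -0.09 for Plxnb3.

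Plxnc1, Plxnb2 and Sema4d are also known from leukocytes, so leukocyte markers were read beside them. Of 11 such markers with a probeset, 3 passed the filter, and their pan-leukocyte member Ptprc stayed below the filter level in every array, as did Itgam, Csf1r, Cd79a, Ms4a1 and S100a8. The summed linear signal of the list was 872 to 936 in normal and 909 to 1309 in db/db arrays. Cd68, a macrophage marker, had 6.63, 6.72 and 6.81 in the normal arrays and 7.95, 7.59 and 6.91 in the db/db arrays (change 0.76 ± 0.27, limma adjusted p = 0.752). C1qa reached 8.27 in db/db replicate 1 with no other array above 7.23 (change 0.44 ± 0.35). Lyz2 and C1qb did not pass the filter. Lyz2 had 6.21, 6.19 and 6.63 in the normal arrays and 7.41, 6.82 and 6.61 in the db/db arrays. C1qb had 6.48, 6.47 and 6.31 in the normal arrays and 6.88, 6.48 and 6.49 in the db/db arrays. Cd3e, a T cell marker and the other one past the filter, had 7.03, 7.59 and 7.12 in the normal arrays and 7.17, 7.06 and 7.18 in the db/db arrays (change -0.11). Like Plxnb2 and Plxnc1, the markers Cd68, C1qa, Lyz2 and C1qb were highest in db/db replicate 1, while Sema4d was highest in db/db replicate 2. Members not read here for leukocytes were also highest in db/db replicate 1, among them Unc5b (8.21), Sema6d (12.23), Nrp2 (9.73), Plxnd1 (10.52) and Plxna2 (10.52). Ptprc was highest there too, while Itgam, Csf1r, Cd3e, Cd79a, Ms4a1 and S100a8 were highest in other arrays. The part of leukocytes in these results was not tested. The summed signal of 12 tubule markers was 1153 to 1278 in normal and 1390 to 1428 in db/db arrays. Calb1, below the filter, had 5.34, 5.44 and 5.59 in the normal arrays and 5.85, 7.41 and 6.82 in the db/db arrays. Kap, also below it, reached 6.85 in db/db replicate 1. Umod and Slc22a6 lay higher in every db/db array, and reached the filter level in those arrays only. The groups overlapped for Slc34a1, Lrp2, Cubn, Slc5a2, Slc12a1, Slc12a3, Aqp2 and Cdh16. Of 7 podocyte markers with a probeset 5 passed the filter, with a median change of 0.06. Among these Nphs1, Wt1 and Synpo had higher db/db means, while Podxl, also a gene of endothelium, and Cdkn1c lay lower in every db/db array than in any normal one (changes of -0.27 and -0.40).

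Ephrins and Eph receptors, which signal between touching cells in both directions, had fewer genes past the filter, 4 of 8 ephrins and 7 of 13 receptors. Their median changes were -0.09 and 0.01. Epha6, an Eph receptor for the lipid-anchored ephrins, had 8.81, 8.72 and 9.10 in the normal arrays and 8.25, 7.68 and 8.50 in the db/db arrays. All db/db arrays were below all normal arrays, and db/db replicate 2 was the lowest, with means going from 8.88 ± 0.20 to 8.14 ± 0.42. The change was -0.73 ± 0.23 (95% interval -1.31 to -0.15, 1.66-fold lower, limma adjusted p = 0.702). Without normal replicate 3 its change was -0.62, no longer at an unadjusted limma p under 0.05.

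Vascular members of these families overlapped between the groups. Efnb2, the ephrin that marks arteries, had 13.10, 13.00 and 13.10 in the normal arrays and 13.18, 13.10 and 13.09 in the db/db arrays, and its change was 0.06 ± 0.08 (95% interval -0.13 to 0.25). Ephb4, its receptor on veins, had 10.20, 10.35 and 10.04 in the normal arrays and 9.99, 10.14 and 10.12 in the db/db arrays, with a change of -0.11 ± 0.11 (95% interval -0.38 to 0.16). Efnb1, another transmembrane ephrin, had 9.57, 9.71 and 9.12 in the normal arrays and 9.19, 9.63 and 9.37 in the db/db arrays (change -0.07 ± 0.20). Both intervals of Efnb2 and Ephb4 excluded a difference of 1.5-fold.

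The ligand Efna1, induced in endothelium by inflammatory signals, had 10.58, 10.10 and 10.82 in the normal arrays and 10.86, 10.21 and 10.07 in the db/db arrays, with a change of -0.12 ± 0.28. Its receptor Epha2 had 8.01, 7.54 and 7.91 in the normal arrays and 8.02, 7.90 and 7.70 in the db/db arrays, with a change of 0.05 ± 0.16. In both genes the groups overlapped. Epha4, a receptor for ephrins of both classes, differed by -0.22, and Efna4 by -0.10. Epha8 differed by 0.01, and the receptors without active kinase, Epha10 and Ephb6, by 0.01 and 0.02.

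Slit and Robo genes had 3 of 7 members past the filter. Robo3, a receptor best known from crossing nerve fibres, had 6.80, 6.82 and 6.78 in the normal arrays and 6.93, 6.97 and 7.03 in the db/db arrays. The groups did not overlap and both were tight, but the change was small, 0.18 ± 0.07 (limma adjusted p = 0.783). Robo4, the Robo of endothelial cells that stabilises vessels, had 9.39, 9.52 and 9.29 in the normal arrays and 9.19, 9.36 and 9.16 in the db/db arrays, with overlap and a change of -0.16 ± 0.10. Slit3, a ligand of the Robos, had 7.14, 6.95 and 7.10 in the normal arrays and 7.45, 7.11 and 7.46 in the db/db arrays, where db/db replicate 2 lay within the normal values (change 0.27 ± 0.13, limma adjusted p = 0.81). Robo1, Robo2, Slit1 and Slit2 did not pass the filter.

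Netrins and their receptors had 7 of 9 genes past the filter, with a median change of 0.07. Ntn4, a netrin of basement membranes that binds laminin, had 10.68, 10.68 and 10.66 in the normal arrays and 10.29, 10.59 and 10.52 in the db/db arrays. The normal arrays were nearly equal and all db/db arrays were lower, db/db replicate 1 most (change -0.21 ± 0.10, limma adjusted p = 0.822). Neo1, neogenin, a receptor for netrins and repulsive guidance molecules, had 10.47, 10.33 and 10.65 in the normal arrays and 9.56, 10.17 and 10.36 in the db/db arrays. Here db/db replicate 1 was far below the others and replicate 3 was above the lowest normal value (change -0.45 ± 0.23, limma adjusted p = 0.822). Its change was -0.22 without db/db replicate 1 and -0.62 without db/db replicate 3. Ntn1, the best known netrin ligand, had 7.39, 7.39 and 7.55 in the normal arrays and 7.20, 7.67 and 7.68 in the db/db arrays, with a change of 0.07 ± 0.16. Changes of Unc5a, Unc5d and Ntn3 were 0.11, -0.01 and 0.10.

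**Figure D3:**
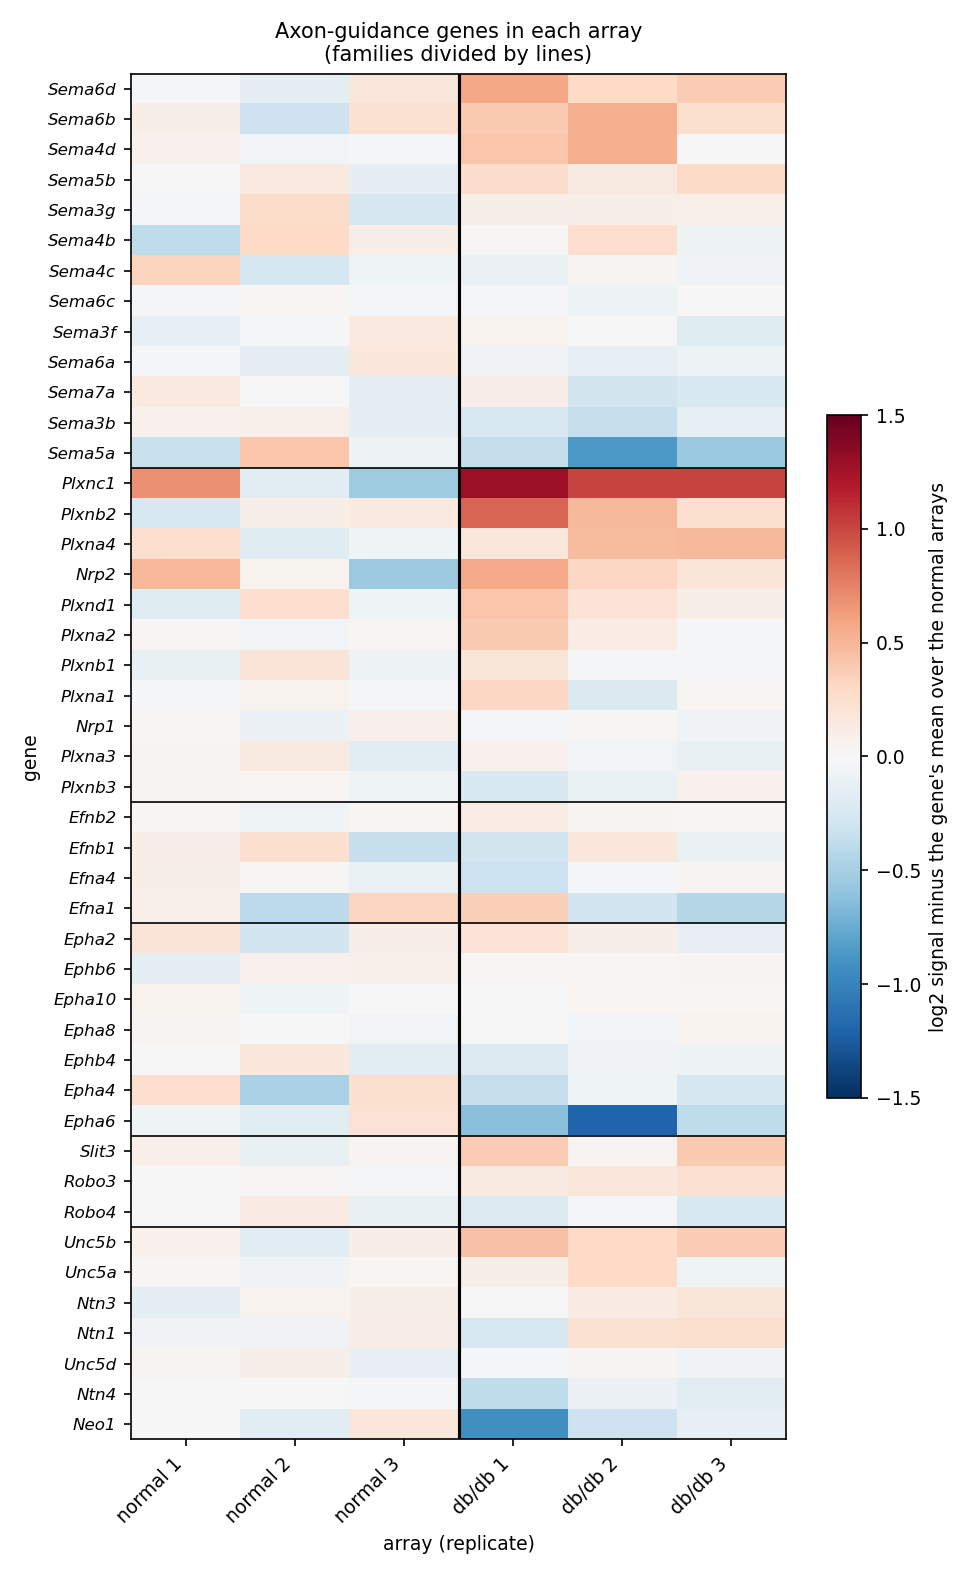
Log2 signal of each array minus the gene's mean over the normal arrays (colour) for the 45 members (y axis, families divided by lines) in the 3 normal and 3 db/db arrays (x axis). Plxnc1 is above its normal mean in all db/db arrays and Epha6 below it, and for Neo1 a single array, db/db replicate 1, departs most.

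Ligands can be set beside the receptors they bind. Plxnc1 was higher by 1.11 while its ligand Sema7a differed by -0.14. Sema4d and Plxnb2 differed by 0.31 and 0.53, while Plxnb1, also a Sema4d receptor, differed by 0.04, and Cd72, its receptor on lymphocytes, was below the filter level in every array. Sema6d was higher by 0.42 and its receptor Plxna1 differed by 0.04, whereas Sema6a differed by -0.08 and its receptors Plxna4 and Plxna2 by 0.37 and 0.16. Unc5b was higher by 0.37 with Ntn1 at 0.07 and Neo1 at -0.45. Whether ligand and receptor differed from each other in change was not tested.

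Other genes of the guidance pathways were read from lists of partner receptors, GTPase switches, kinases with adaptors and cytoskeletal effectors. Of 88 genes listed, 82 had a probeset and 71 passed the filter, with 0 past the adjusted limma test, 6 higher and 1 lower at an unadjusted p under 0.05 (backgrounds of 3.49% and 3.07% of genes). Flrt2, a ligand of Unc5 receptors, had 8.98, 9.18 and 8.92 in the normal arrays and 9.55, 9.63 and 9.65 in the db/db arrays, without overlap (change 0.59 ± 0.10, limma adjusted p = 0.373). Mcam, an adhesion molecule of endothelium reported to bind netrin 1, had 10.38, 10.62 and 10.62 in the normal arrays and 11.36, 11.16 and 11.12 in the db/db arrays, also without overlap (change 0.67 ± 0.12, limma adjusted p = 0.376). Both belong to the 15 partner receptors past the filter, of which 2 were higher and 0 lower at that level.

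Inside the cell, 27 GTPases and regulators passed the filter. Of these 1 was higher and 1 lower at an unadjusted limma p under 0.05 (backgrounds of 3.49% and 3.07% of genes). Srgap1, a GTPase-activating protein that acts under Robo receptors, differed by 0.45 ± 0.17 (limma adjusted p = 0.754). Farp2, an exchange factor for Rac under neuropilin and plexin A, differed by -0.42 ± 0.14 (limma adjusted p = 0.717). Among 17 kinases and adaptors, 2 were higher at that level. Yes1, a Src family kinase, differed by 0.44 ± 0.13 (limma adjusted p = 0.677). Nck2, an SH2 adaptor, differed by 0.44 ± 0.13 (limma adjusted p = 0.684). Of 12 cytoskeletal effectors 1 was higher at that level, Myo10, a filopodial motor, by 0.22 ± 0.08 (limma adjusted p = 0.75). Next by p was Dpysl3, a collapsin response mediator, at 0.28 ± 0.13 (limma adjusted p = 0.796).

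Below the filter stood 23 members: Dcc, Efna2, Efna3, Efna5, Efnb3, Epha1, Epha3, Epha5, Epha7, Ephb1, Ephb3, Robo1, Robo2, Sema3a, Sema3c, Sema3d, Sema3e, Sema4a, Sema4f, Sema4g, Slit1, Slit2 and Unc5c. Their signals lay between 4.93 and 6.76, and 19 reached the level in no array and 4 (Epha1, Sema4a, Slit1 and Unc5c) in 1 array. Among the 45 members kept, 40 were at the level in all 6 arrays and 5 in 3 to 5 arrays, and 0 passed through 1 group alone. Just inside the filter were Sema6c, Plxnb3 and Ntn3, whose third-highest signals were each 6.65, and just outside were Efnb3, Sema4a and Robo1 at 6.60, 6.55 and 6.53. Sema3e, the ligand of Plxnd1, and Sema3c, a further neuropilin ligand, were thus not compared.

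Some members are neighbours in the genome. All 68 members were found by symbol in RefSeq. The adjacent pair Robo3 and Robo4 had changes of opposite sign, 0.18 and -0.16. Ntn4 and Plxnc1, with 8 coding genes between them, also differed in opposite directions, by -0.21 and 1.11. Efna1, Efna3 and Efna4 lie side by side, of which Efna1 and Efna4 passed the filter and differed by -0.12 and -0.10. The nearest member to Lepr, the gene mutated in db/db mice, was Epha10, with 269 coding genes between them.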

How the data were processed

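RNA of sorted GEC was amplified, labelled and hybridised to Affymetrix whole-transcript mouse arrays, 1 per sample. The deposited values are log2 probeset signals. The study's methods name RMA in GeneSpring and the submitters' processing notes list MAS5, a conflict that was not resolved, and no genome build is given in the sources used here. No further normalisation was applied. Probesets at 100 or more (linear) in 3 or more arrays were kept, as in the study's methods, which left 20661 of 35557, and probesets with several symbols, such as those of globins, were not used for gene names. Groups came from the labels and were compared with limma 3.58.1 in R 4.3.3 (lmFit, eBayes, two-sided, Benjamini-Hochberg adjustment over all kept probesets, threshold 0.05). The fit was tested on simulated data. Errors are SD or the moderated SE over arrays, whose number limits the precision.

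The members, lists and rules were chosen with earlier results of these data known. All kept members are named, with full values for the 14 with the smallest p and for members with a textbook vascular part, and the 2 smallest p in each pathway list. Alternatives were quantile normalisation, median centring, no filter, a level of 200, array weights, a replicate block, an intensity trend in eBayes (also with a robust prior), 1 probeset or the mean per gene, probesets with a gene listed, the methods' t-test (unpaired, equal variance) and leaving out each array. The screen of that t-test with over 1.5-fold was chosen after seeing the data. Of the pathway genes listed, 6 were not analysed here. Promoter windows came from RefSeq for GRCm38.p6. The printed windows were cut to bases outside the gene's own span, while the shares of all windows and the counts over 38 members used windows without that cut. Python 3.11.15 with matplotlib 3.10.9 made the figures.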

Additional observations from a re-analysis of the deposited data

How the results depend on the processing

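No member passed the adjusted limma test under any of the 18 alternatives, and the smallest adjusted p of a member lay between 0.488 and 0.891. Unc5b, Plxnc1 and Sema6d were higher at an unadjusted p under 0.05 in all 18, Epha6 lower in 16, Plxnb2 higher in 12 and Sema5a lower in 10. Plxnb2 lost this level with the replicate block, with the methods' t-test and on leaving out normal replicate 1, normal replicate 2, diabetic replicate 1 or diabetic replicate 2. Sema5a lost it with quantile normalisation, the block, array weights, the t-test and on leaving out normal replicate 2, normal replicate 3, diabetic replicate 2 or diabetic replicate 3, and Epha6 with the t-test and without normal replicate 3. The count of members lower was 1 with quantile normalisation, 1 with the replicate block, 1 with array weights, 0 with the methods' t-test and 3 with median centring, and 1 to 2 with an array left out. The count of members higher was 6 with quantile normalisation, array weights, 1 probeset per gene and the mean of all probesets, and 3 to 5 under the other alternatives. In either direction, 6.57%, 7.52%, 7.69% and 7.73% of genes were at that level in the settings with 6, in that order. In the other alternatives 4.81% to 7.58% of genes were. Members with every db/db array above every normal array numbered 6 to 10 with an array left out (10 without normal replicate 1, normal replicate 2 or diabetic replicate 3), and those below 4 to 7 (7 without normal replicate 2), as fewer arrays separate more easily. The share of all genes without overlap was not computed with an array left out, so these counts have no background and are not read as a result. Pathway partners lower at an unadjusted limma p under 0.05 numbered 2 with median centring, 0 at a level of 200 and 3 with 1 probeset per gene tested. They numbered 2 with only probesets with a gene listed, 3 with the mean of all probesets, and 0 to 3 with an array left out. In these settings 4.81% to 7.73% of genes were at that level in either direction. The change of Epha2 was -0.039 with array weights. With an array left out, changes of members near 0 crossed it: Efna1 from -0.359 to 0.039, Efnb1 from -0.240 to 0.054, Epha2 from -0.087 to 0.152, Nrp1 from -0.070 to 0.014, Ntn1 from -0.011 to 0.232, Sema3f from -0.099 to 0.033, Sema3g from -0.044 to 0.222 and Sema6a from -0.154 to 0.002. The cause of these shifts was not tested. The labels share replicate numbers between groups, but same-numbered arrays did not deviate together (correlations of -0.004, 0.035 and -0.030). The samples were therefore treated as unpaired, though 3 arrays per group cannot exclude a pairing, by number or in another order. With the replicate block 3 members were higher and 1 lower at that level (5.69% of genes in either direction).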
